A study of Mus musculus with 10 samples.

Results

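The LIF receptor, its JAK kinase, STAT3 and the genes that STAT3 is known to switch on were followed by RNA-seq in male mouse embryonic stem cells (mESCs). The 10 genes were taken by name from the 25965 features of the deposited table: the receptor chains Lifr and Il6st, the kinase Jak1, the transcription factor Stat3, the feedback inhibitor Socs3, the nuclear factors Junb, Bcl3 and Gbx2, and the kinases Pim1 and Pim3. All 10 passed the filter on low values, which asked for a log2 value over 0 in 50% or more of the libraries fitted. The cells were C57BL/6 mESCs of 2 independent lines, derived under the study's own method and split at passage 0 (p0). All groups were kept in 2i/LIF, a defined medium with inhibitors of MEK and GSK3 plus LIF, so LIF was present throughout and no group lacked it. The groups were p0 cells, cells after 10 or 20 passages (p10, p20) under Keniry2022 (labelled New or Off), in suspension on untreated plates with daily passage, and cells after 10 or 20 passages under Mulas2019 (labelled Old or On), on gelatin at lower density with passage every other day. Each group had 2 libraries, 1 per line, and p20 under Keniry2022 was matched in days of culture to p10 under Mulas2019. Because the lines were derived under Keniry2022, p0 and the Keniry2022 libraries share a method.

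LIF binds LIFR, which pairs with gp130, the product of Il6st, and JAK kinases on the paired chains phosphorylate STAT3. STAT3 dimers then enter the nucleus and switch on target genes, and one of these, Socs3, encodes a protein that binds gp130 and the JAKs and damps the signal. In mouse embryonic stem cells this pathway sustains self-renewal in the naive state. The signal passes by phosphorylation, which RNA-seq does not measure, so the values below are mRNA levels only.

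Values are log2 RPKM, reads scaled to exon length and to the library total, and differences are on the same log2 scale. Library totals, worked out from the table, ranged from 24053996 to 30236823 reads, and the 10 genes had between 149 reads (Junb in p20 Mulas2019 replicate 2) and 3913 reads (Pim1 in p10 Mulas2019 replicate 2) in a library. The SD of the difference between the 2 replicates over 11561 features was 0.611 at p0 and 0.23 to 0.265 in the other 4 groups, and at p0 this difference moved with exon length. Its median was 0.56 for features under 1 kb and −0.65 for features over 8 kb. p0 replicate 1 was thus low for long genes relative to replicate 2, and the part of this in the comparisons with p0 was not tested. The differences behind the members' calls against p0 are therefore also given without p0 replicate 1. The non-overlaps with p0 rest on both p0 libraries. Y-linked reads (4 genes) were 132 or fewer in 1 library and 4578 or more in the other library of every group. As given above, 1 line was reported to have lost its Y chromosome. Replicate 1 was the low library except in p20 Keniry2022, where it had 6659 reads and replicate 2 had 48, which goes against the numbering. The main tests did not pair the samples by number. Pluripotency markers summed to 1080 to 1520 RPKM, against 1.49 to 2.48 for primitive endoderm, 0.966 to 1.58 for primed or mesoderm cells, 4.43 to 7.73 for neural cells (mostly Nes), 0.408 to 1.06 for trophoblast and 0.348 to 1.03 for fibroblasts, with Col1a2 and Dcn near the floor in all libraries. By method the pluripotency sum was 1190.0 to 1330.0 under Keniry2022 and 1080 to 1110 under Mulas2019, with 3 of 5 markers (Pou5f1, Nanog and Zfp42) called higher under Keniry2022. In that comparison, with p10 and p20 pooled, 25.9% of all features were called higher and 25.5% lower. The neural sum was 4.47 to 5.44 against 5.51 to 7.73, with Nes, the 1 of 3 markers tested, called lower. The part of these markers in the differences between methods was not tested.

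To ask whether the 2 culture methods left the pathway at different mRNA levels, p10 and p20 were pooled, with 4 libraries per method. Of the 10 genes, 3 passed limma's test at an adjusted p of 0.05 or less, where 51.5% of all 11654 features tested did, a share above that of the 10 genes (25.9% of features were higher and 25.5% lower under Keniry2022). Pim1 and Jak1 were lower under Keniry2022, at 0.849 and 0.889 times the Mulas2019 level, and Pim3 was higher at 1.13 times. The median difference was 0.07 over the 10 genes and −0.003 over all features. In these bulk samples fewer cells with a transcript and less of it per cell cannot be told apart. The 4 libraries of a method are 2 lines at 2 passages, so they are not 4 independent derivations.

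**Figure D1:**
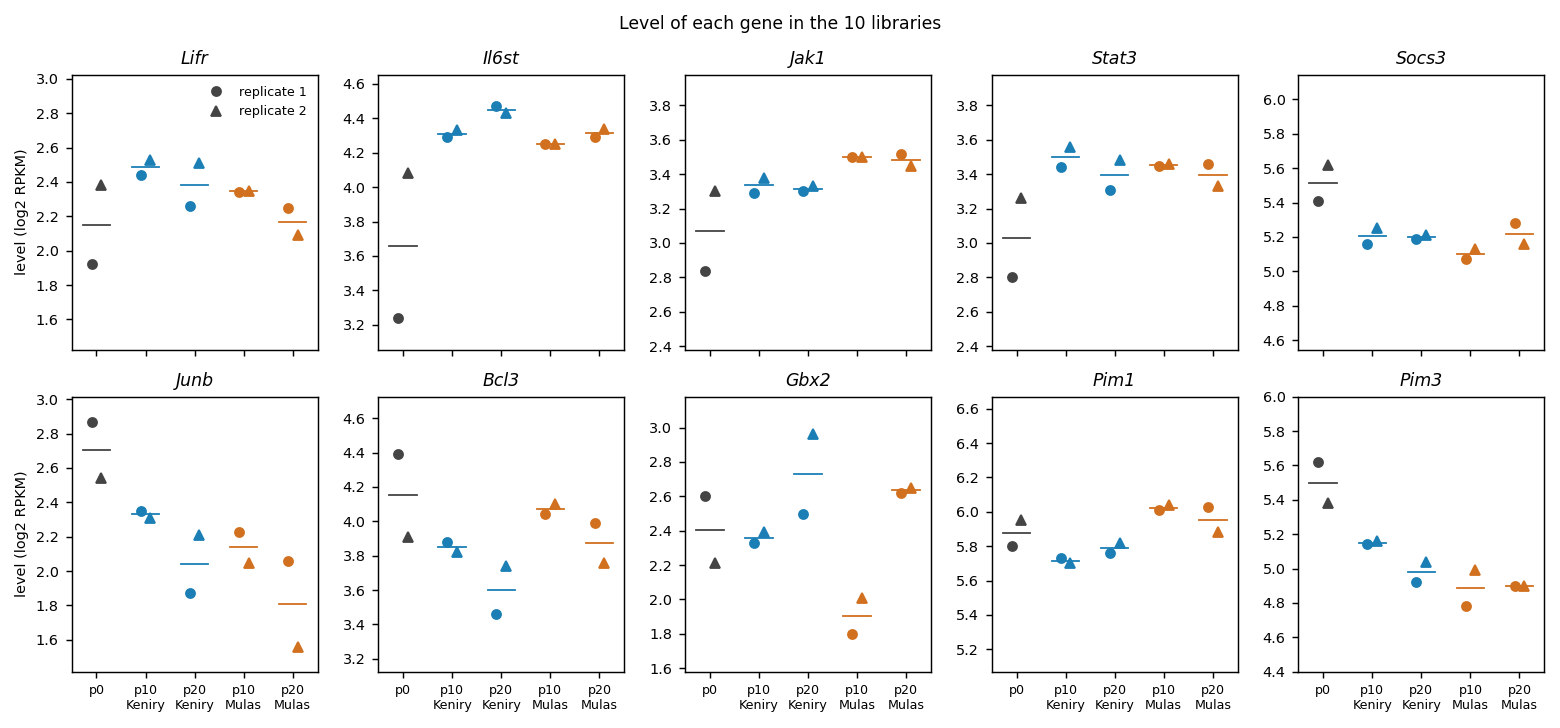
Level of each gene (log2 RPKM) in the 10 libraries, by group. Circles are replicate 1, triangles replicate 2 and bars group means, and every panel spans the same range of log2 units. The p0 replicates lie far apart for Il6st, from 3.24 to 4.08, and the Jak1 and Pim1 libraries of the 2 methods do not overlap.

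Lifr, on chromosome 15 (7129559-7197489, mm10, plus strand), encodes the chain that binds LIF. It was at 2.44 and 2.53 at p10 and 2.26 and 2.51 at p20 under Keniry2022. It was at 2.34 and 2.35 at p10 and 2.25 and 2.09 at p20 under Mulas2019, with 1.92 and 2.38 at p0. Its group means were highest in p10 Keniry2022 and lowest at p0, and the only neighbours in that order without overlap were p10 Mulas2019 (2.35) and p20 Mulas2019 (2.17). The pooled means of 2.43 ± 0.12 and 2.26 ± 0.12 (SD, n = 4 each) differed by 0.18 (95% interval 0 to 0.35), with a limma adjusted p of 0.0883.

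Il6st, on chromosome 13 (112475008-112506860, plus strand), encodes gp130, the shared signal-transducing chain of the IL-6 family. It was the more abundant receptor chain per length in all libraries. The 8 cultured libraries lay between 4.25 and 4.47, above p0 replicate 2 at 4.08 and far above p0 replicate 1 at 3.24. The methods had means of 4.38 ± 0.08 under Keniry2022 and 4.28 ± 0.04 under Mulas2019 (SD, n = 4 each), a difference of 0.10 (95% interval −0.01 to 0.20) with a limma adjusted p of 0.111. Within each passage the Keniry2022 pair lay above the Mulas2019 pair, by 0.06 at p10 and 0.13 at p20, and neither difference passed the test. The exon length recovered for Il6st was 5207 bases where the reference annotation has 11099, so its reads come from a shorter gene model. Pim1 (1972 against 3362), Gbx2 (4240 against 2177) and Junb (1840 against 2301) also differ.

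Jak1, on chromosome 4 (101152367-101265282, minus strand), encodes a kinase bound to gp130. Under Keniry2022 it was at 3.29 and 3.38 at p10 and 3.30 and 3.33 at p20. Under Mulas2019 it was at 3.50 and 3.50 at p10 and 3.52 and 3.45 at p20, so all 4 Mulas2019 libraries lay above all 4 Keniry2022 libraries. Over all features 46.5% showed no overlap between the methods. Jak1 was lower under Keniry2022 by 0.17 (0.889-fold, 95% interval −0.26 to −0.08, limma adjusted p = 0.00638). Features over 8 kb of exon had a median difference between methods of −0.15, and those of 4 to 8 kb, the class of Jak1 at 7227 bases, of −0.06. With each library corrected for its trend on exon length, an alternative added after the data were seen, the difference was −0.07 with an adjusted p of 0.178, so the call was lost.

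Stat3, on chromosome 11 (100885098-100939540, minus strand), was the member whose levels under the methods were closest. It was at 3.44 and 3.56 at p10 and 3.31 and 3.48 at p20 under Keniry2022. Under Mulas2019 it was at 3.45 and 3.46 at p10 and 3.46 and 3.33 at p20, and the libraries of the methods overlapped at both passages. The difference was 0.02 (95% interval −0.11 to 0.15, limma adjusted p = 0.793), so differences inside that interval are compatible with these values. With the correction for exon length the estimate was 0.16 (adjusted p = 0.0468), since Stat3 has 9527 bases of exon. Jak1 and Stat3 share exon bases at their ends with the antisense genes Raver2 and Stat5a, and no strand setting is given in the sources used here, so these reads cannot be told apart. Raver2 was at 0.44 to 1.34 and Stat5a at −0.75 to 0.09, both well below their neighbours.

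**Figure D2:**
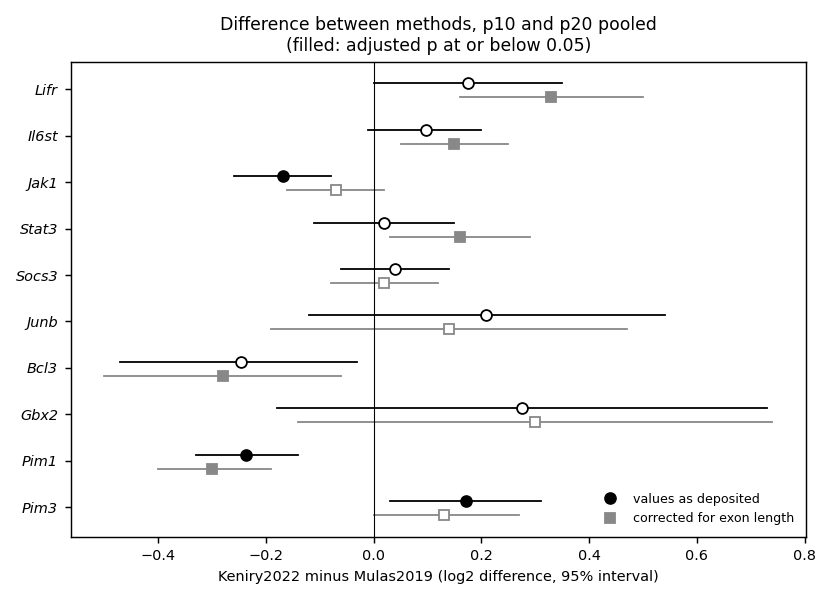
Difference between methods (Keniry2022 minus Mulas2019, log2) for the 10 genes with 95% intervals, p10 and p20 pooled, as deposited (circles) and corrected for exon length (squares), filled where the adjusted p was at or below 0.05. As deposited, Jak1, Pim1 and Pim3 are filled, and after the correction Lifr, Il6st, Stat3, Bcl3 and Pim1 are.

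Socs3, on chromosome 11 (117966079-117970047, minus strand), the feedback inhibitor, was an abundant member at 5.07 to 5.28 in the 8 cultured libraries. It was higher at p0, at 5.41 and 5.62. The difference between methods was 0.04 (95% interval −0.06 to 0.14, limma adjusted p = 0.498), with means of 5.20 ± 0.04 under Keniry2022 and 5.16 ± 0.09 under Mulas2019 (SD, n = 4 each). Its range over the 8 cultured libraries was the narrowest of the 10 genes.

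The targets differ in their start-site regions, which are shown because Socs3, Junb and Pim3 had both p0 libraries above all cultured ones, and Pim1, which did not, is set beside them. Each sequence is from RefSeq (GRCm38.p6) and runs 5′ to 3′ on the gene's strand over the 250 bases before the start and the start itself. Capitals mark the annotated first base at the 3′ end and, in Socs3, a match to the palindrome TTCNNNGAA bound by activated STAT proteins.
Socs3, chr11:117969366-117969616, minus strand: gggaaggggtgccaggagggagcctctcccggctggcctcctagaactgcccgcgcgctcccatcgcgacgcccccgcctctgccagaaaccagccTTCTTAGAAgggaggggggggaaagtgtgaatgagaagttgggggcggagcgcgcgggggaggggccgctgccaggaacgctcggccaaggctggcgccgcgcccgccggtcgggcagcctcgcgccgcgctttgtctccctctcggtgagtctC
Junb, chr8:84978748-84978998, minus strand: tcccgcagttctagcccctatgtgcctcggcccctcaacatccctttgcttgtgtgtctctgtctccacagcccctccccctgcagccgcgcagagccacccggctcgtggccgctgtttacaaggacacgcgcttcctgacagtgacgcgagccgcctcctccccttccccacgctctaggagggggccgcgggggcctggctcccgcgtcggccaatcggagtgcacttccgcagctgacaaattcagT
Pim3, chr15:88861944-88862194, plus strand: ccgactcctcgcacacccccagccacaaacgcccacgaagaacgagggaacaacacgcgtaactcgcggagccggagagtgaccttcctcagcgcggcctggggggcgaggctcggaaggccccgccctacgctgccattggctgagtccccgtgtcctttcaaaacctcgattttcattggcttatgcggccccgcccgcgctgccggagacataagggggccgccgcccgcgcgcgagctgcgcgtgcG
Pim1, chr17:29490535-29490785, plus strand: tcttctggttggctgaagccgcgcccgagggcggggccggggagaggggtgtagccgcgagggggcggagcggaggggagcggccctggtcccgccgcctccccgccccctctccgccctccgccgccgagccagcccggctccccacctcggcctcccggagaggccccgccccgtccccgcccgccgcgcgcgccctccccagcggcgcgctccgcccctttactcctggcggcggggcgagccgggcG
The motif TTCNNNGAA, the same on both strands, was searched in windows of 300 bases (250 before to 50 after the start). It was in 1 of 12 windows of the 10 genes, in Socs3 with its first base at −154, and in 8.3% of 32851 RefSeq windows. No match in the other windows says only that these letters are absent there.

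Junb, on chromosome 8 (84976909-84978748, minus strand), encodes an AP-1 subunit and had the fewest reads of the 10 genes. It was at 2.35 and 2.31 at p10 and 1.87 and 2.21 at p20 under Keniry2022. It was at 2.23 and 2.05 at p10 and 2.06 and 1.56 at p20 under Mulas2019, all, as under Keniry2022, below the p0 libraries at 2.87 and 2.54. The methods overlapped, and the difference of 0.21 (95% interval −0.12 to 0.54) had a limma adjusted p of 0.258.

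Bcl3, on chromosome 7 (19808462-19822770, minus strand), encodes an IκB-like cofactor of NF-κB. It was at 3.88 and 3.82 at p10 and 3.46 and 3.74 at p20 under Keniry2022. It was at 4.04 and 4.10 at p10 and 3.99 and 3.76 at p20 under Mulas2019. The pairs did not overlap within either passage, but the 4 libraries per method did, and the difference of −0.25 (0.843-fold, 95% interval −0.47 to −0.03) missed the threshold at a limma adjusted p of 0.0586. Its exons overlap the antisense feature Gm16175, at 1.90 to 3.18, and reads of the pair cannot be told apart.

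Gbx2, on chromosome 1 (89927962-89933290, minus strand), encodes a homeodomain factor known to sustain naive mESCs downstream of STAT3, and varied most among the 8 cultured libraries. Under Mulas2019 it was at 1.80 and 2.01 at p10 and at 2.62 and 2.65 at p20. Under Keniry2022 it was at 2.33 and 2.39 at p10 and at 2.50 and 2.96 at p20, with 2.60 and 2.21 at p0. Both p10 Mulas2019 libraries lay below all other libraries. The pooled difference of 0.28 (95% interval −0.18 to 0.73) did not pass (limma adjusted p = 0.279). An antisense feature, D130058E05Rik, lies across its exons at 1.80 to 2.99, much the level of Gbx2 itself, so the reads of the pair cannot be told apart.

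Pim1, on chromosome 17 (29490812-29495445, plus strand), and Pim3, on chromosome 15 (88862186-88865718, plus strand), encode serine/threonine kinases that promote survival. Pim1 was at 5.73 and 5.70 at p10 and 5.76 and 5.82 at p20 under Keniry2022. It was at 6.01 and 6.04 at p10 and 6.03 and 5.88 at p20 under Mulas2019, with no overlap between methods and p0 (5.80 and 5.95) between the extremes. Pim1 was lower under Keniry2022 by 0.24 (0.849-fold, 95% interval −0.33 to −0.14, limma adjusted p = 0.00163). This was the only call among the 10 genes kept under all 21 alternatives run, with differences of −0.36 to −0.22.

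Pim3 went the other way. It was at 5.14 and 5.16 at p10 and 4.92 and 5.04 at p20 under Keniry2022, against 4.78 and 4.99 at p10 and 4.90 and 4.90 at p20 under Mulas2019. It was higher under Keniry2022 by 0.17 (1.13-fold, 95% interval 0.03 to 0.31, limma adjusted p = 0.0387), although the libraries of the methods overlapped. The call was lost under 13 of 21 alternatives, among them leaving out any of p10_Keniry2022 replicate 1, p10_Keniry2022 replicate 2, p20_Keniry2022 replicate 2, p10_Mulas2019 replicate 1 and either p20_Mulas2019 replicate (differences of 0.14 to 0.22 over all 8 such fits).

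Within a passage, tests rested on 2 libraries per group in 1 model of all 10 libraries. At p10, 0 of 10 genes passed, against 8.53% of 11561 features. Unadjusted p was under 0.05 for 3 (Gbx2 0.45, Pim1 −0.31 and Pim3 0.26), where 3121 of 11561 features reached that level, and voom called 0. At p20, 0 of 10 passed, against 2.15% of features, with 0 at an unadjusted p under 0.05 (2238 of 11561 features) and 0 by voom. The spread in this model includes the p0 pair. In the model of the 4 cultured groups alone, 4 genes passed at p10 (Jak1, Gbx2, Pim1 and Pim3) and 3 at p20 (Il6st, Jak1 and Pim1), where 48.3% and 36.7% of features did. Matched in days, p20 Keniry2022 against p10 Mulas2019, 1 of 10 genes passed, against 6.43% of features. Gbx2 was higher under Keniry2022 by 0.82 (1.77-fold, 95% interval 0.40 to 1.24, limma adjusted p = 0.0408), with no overlap between the pairs. Without any one cultured library this call was lost, at adjusted p values up to 0.277.

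Drift between p10 and p20 passed for 0 of 10 genes within Keniry2022 and for 0 of 10 within Mulas2019 (limma), as for 0% of all features in both. At an unadjusted p under 0.05 there were 0 and 1, where 289 and 772 of 11561 features reached that level, and voom called 0 in both. The 1 was Gbx2 within Mulas2019, 0.73 higher at p20 (95% interval 0.31 to 1.15, unadjusted p = 0.00406, adjusted p = 0.46), and it passed in the model of the 4 cultured groups. The interaction of method and passage passed for 0 of 10 genes (limma, 0% of features, 0 by voom). At an unadjusted p under 0.05 there were 0 of the 10 genes and 405 of 11561 features. Gbx2 had the largest estimate, −0.36 (95% interval −0.95 to 0.24).

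Against p0, the cultured libraries overlapped with the p0 libraries for 5 of the 10 genes and lay to 1 side of both for 5. Il6st and Stat3 were above both p0 libraries in all 8 cultured libraries, and Socs3, Junb and Pim3 were below both in all 8. These 5 of 10 genes compare with 26.1% of all features (12.9% above and 13.2% below). The receptor chain and the transcription factor thus lay on the opposite side of p0 from 3 target genes. Corrected for exon length, 3 of 10 kept to 1 side (Il6st above, Junb and Pim3 below), against 22.8% of 11560 features, and Stat3 at p0 was then 3.44 and 3.30, within the range of cultured libraries. The p0 libraries themselves differed with length. For the 4 longest members (5207 to 10330 bases of exon), replicate 1 minus replicate 2 was −0.84 in Il6st, −0.47 in Stat3, −0.47 in Lifr and −0.46 in Jak1. It was 0.33 in Junb, 0.48 in Bcl3, 0.25 in Pim3 and 0.39 in Gbx2, all with 4240 bases or fewer, while the similarly short Pim1 and Socs3 went the other way at −0.15 and −0.21.

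**Figure D3:**
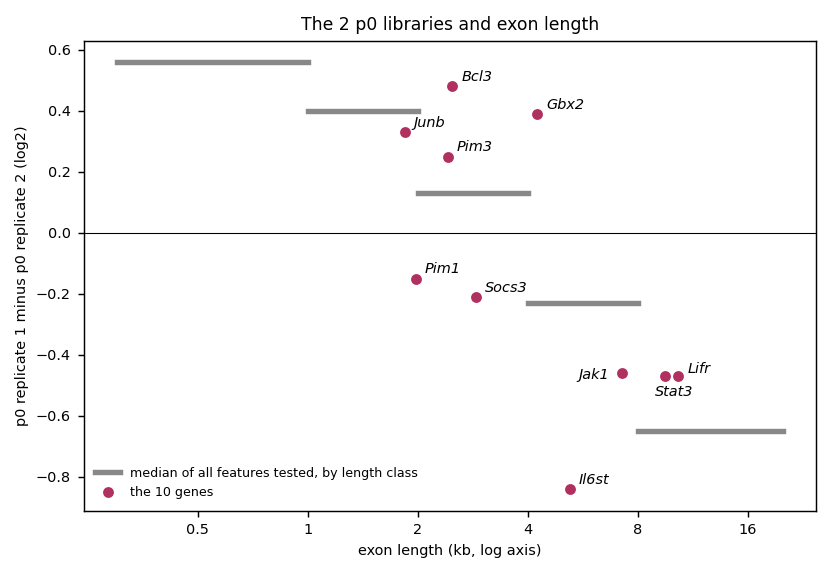
Difference between the p0 libraries (replicate 1 minus replicate 2, log2) against exon length (kb, log axis) for the 10 genes (points) and the median of all features tested in 5 length classes (bars). The medians run from 0.56 to −0.65 with length, and Il6st at −0.84 lies below the median of its class, −0.23.

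In the tests against p0, 0 of 10 genes passed at p10 under Keniry2022 and 0 of 10 at p20 (limma), against 0.199% of features in each. At an unadjusted p under 0.05 there were 4 and 6 genes, where 2860 and 3237 of 11561 features reached that level, and voom called 0 in both. Under Mulas2019, 3 of 10 passed at p10, against 33.0% of features, and 2 of 10 at p20, against 29.3%. These 4 comparisons share the 2 p0 libraries. The tests between the methods, not these counts, compare the methods with each other.

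Pim3 was called against p0 at both passages under Mulas2019. It fell by 0.61 at p10 (0.655-fold, limma adjusted p = 0.0135) and by 0.60 at p20 (0.66-fold, adjusted p = 0.0162) under Mulas2019. Under Keniry2022 its differences were −0.35 (adjusted p = 0.161) and −0.52 (adjusted p = 0.102). Without p0 replicate 1 the 4 differences were −0.49 and −0.48 under Mulas2019 and −0.22 and −0.40 under Keniry2022, of which the first 2 and the last passed (adjusted p = 0.00364, 0.00452 and 0.0445).

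Socs3 fell by 0.41 from p0 to p10 under Mulas2019 (0.752-fold, 95% interval −0.63 to −0.19, limma adjusted p = 0.0211). At p20 it was −0.29 (adjusted p = 0.0516), and under Keniry2022 −0.31 (adjusted p = 0.154) and −0.31 (adjusted p = 0.132). Without p0 replicate 1 the 4 differences of Socs3 were −0.51, −0.40, −0.41 and −0.42 in this order. Without p0 replicate 2 they were −0.31, −0.19, −0.20 and −0.21. Each of these fits leaves 1 library at p0. With both p0 libraries and the correction for exon length Socs3 passed in 0 of the 4, at −0.31 (adjusted p = 0.0537), −0.22, −0.25 and −0.25 in the same order.

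Junb fell by 0.89 from p0 to p20 under Mulas2019 (0.539-fold, 95% interval −1.35 to −0.43, limma adjusted p = 0.0224), from 2.87 and 2.54 to 2.06 and 1.56. At p10 under Mulas2019 the difference was −0.56 (adjusted p = 0.0597). Under Keniry2022 it was −0.37 at p10 and −0.67 at p20, with adjusted p of 0.253 and 0.132. Without p0 replicate 1 the p20 Mulas2019 difference was −0.73 (adjusted p = 0.0256).

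Jak1 rose by 0.43 from p0 to p10 under Mulas2019 (1.35-fold, 95% interval 0.10 to 0.76), with a limma adjusted p of 0.05, at the threshold. Without p0 replicate 1 the difference was 0.20 (adjusted p = 0.0484), and without p0 replicate 2 it was 0.66. The call was lost in 15 of 21 alternatives, among them the correction for exon length, which gave 0.08 (adjusted p = 0.361). Il6st and Stat3 passed in 0 of the 4 comparisons with both p0 libraries, at differences of 0.59 to 0.79 for Il6st and 0.36 to 0.47 for Stat3. Without p0 replicate 1, Il6st passed at p20 under Keniry2022 (0.36, adjusted p = 0.0217) and at both passages under Mulas2019 (0.17 and 0.23, adjusted p = 0.0425 and 0.0135), while Stat3 passed in 0 of 4 at 0.13 to 0.24. Il6st was higher than either p0 library in all 8 cultured libraries, and the size depended on which was used.

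**Figure D4:**
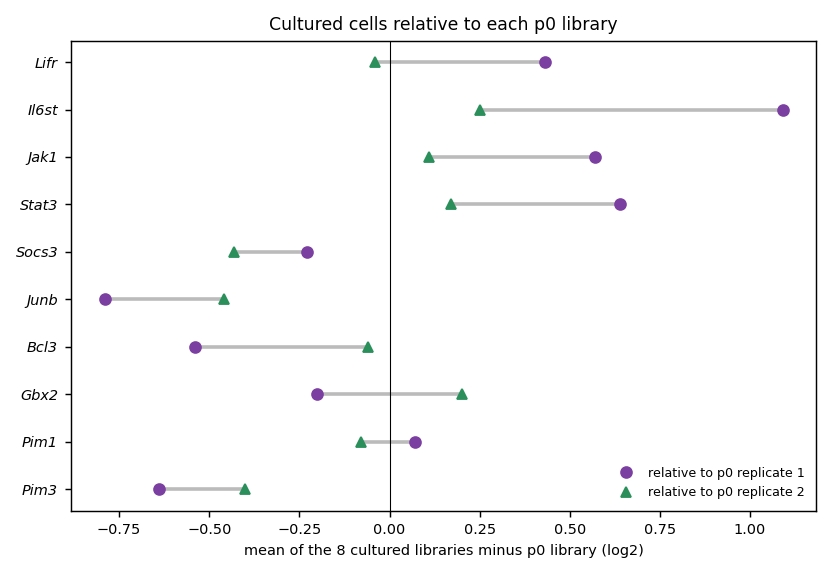
Mean of the 8 cultured libraries minus p0 replicate 1 (circles) or p0 replicate 2 (triangles), log2, for each gene. Il6st lies at 1.09 and 0.25, Pim3 at −0.64 and −0.40, and Lifr, Gbx2 and Pim1 change sign with the p0 library used.

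Other genes of the pathway were read from 4 lists. Of 11 other ligands and receptors of the IL-6 family, 5 passed the filter and 1 passed the test between the pooled methods, where 51.5% of features did. Il6ra, the IL-6 binding chain, was higher under Keniry2022 by 0.43 (limma adjusted p = 0.00468), at 1.20 to 1.38 against 0.68 to 1.03. Lif itself was measured at means of 1.34 under Keniry2022 and 1.41 under Mulas2019 (difference −0.07, adjusted p = 0.469). Osmr, an alternative partner of gp130, was near the floor of the table at −8.52 and −8.48.

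Of 9 other JAK and STAT genes, 8 were tested, and 1 was higher and 4 lower under Keniry2022, a share not far from the 51.5% of all features (25.9% higher and 25.5% lower). Stat2, a mediator of type I interferon signals, was lower by 0.69 (0.618-fold, limma adjusted p = 3.56e-05), at 2.64 to 2.78 against 3.31 to 3.47. Stat5b was lower by 0.89 (0.538-fold, adjusted p = 0.000446), at 0.39 to 0.76 against 1.14 to 1.63. These are transcription factors of the same family as Stat3. Stat4 was higher by 0.43 (1.34-fold, adjusted p = 0.00297), at 2.29 to 2.50 against 1.77 to 2.16. All 3 differences were larger than that of any of the 10 genes and kept their call under every alternative run. The median of this list was −0.20, against −0.003 over all features. Stat2 also passed at p10 (−0.69, adjusted p = 0.00801) and at p20 (−0.69, adjusted p = 0.0209). Against p0, 0 of the 8 passed under Keniry2022 at either passage, where 0.199% of features did at each. Under Mulas2019 5 of 8 passed at p10, against 33.0% of features, and 4 of 8 at p20, against 29.3%, among them Stat2 (0.69 and 0.79 higher) and Stat5b (0.97 and 0.70 higher).

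Of 19 adaptors and negative regulators, 18 were tested, and 4 were higher and 5 lower under Keniry2022, a share near that of all features. Socs2, a relative of Socs3 known for damping growth hormone signals, was higher by 0.58 (1.5-fold, limma adjusted p = 0.000956), at 1.93 to 2.20 against 1.27 to 1.64. Shc1, a scaffold that links receptors to RAS, was higher by 0.28 (1.22-fold, adjusted p = 0.00116), at 4.34 to 4.38 against 3.97 to 4.17. Sh2b3, an adaptor that restrains JAK signals, was lower by 0.48 (adjusted p = 0.00356), and Socs5 was lower by 0.36 (adjusted p = 0.0137). The list's median was −0.06.

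Of 16 other genes named as STAT3 targets, 13 were tested, and 3 were called higher and 4 lower under Keniry2022, with a median of 0.05. Over all features 51.5% were called (25.9% higher and 25.5% lower). The 3 include Myc, a growth regulator at 0.27 to 1.43 under Keniry2022 and −1.41 to −0.41 under Mulas2019. Myc passed the filter only through the 4 Keniry2022 libraries, so its difference, 1.95 as deposited and 1.0 with 1 RPKM added, is given without its test. Its place among the tested and called genes came through that filter, so these counts are not compared with the share of all features. Pramel7, a STAT3 target that supports the naive state, was higher by 0.78 (1.71-fold, adjusted p = 0.000381), at 3.14 to 3.57 against 2.39 to 2.86. Cebpb, an acute-phase transcription factor, was lower by 0.97 (0.512-fold, adjusted p = 0.0176), at 0.93 to 1.65 against 1.35 to 2.77, so the methods overlapped, and the call was lost in 1 of 20 alternatives, with no filter on low values (adjusted p = 0.0669). Ier3, an immediate early gene, was lower by 0.73 (0.602-fold, adjusted p = 0.0025), at 2.66 to 3.33 against 3.46 to 3.89.

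**Figure D5:**
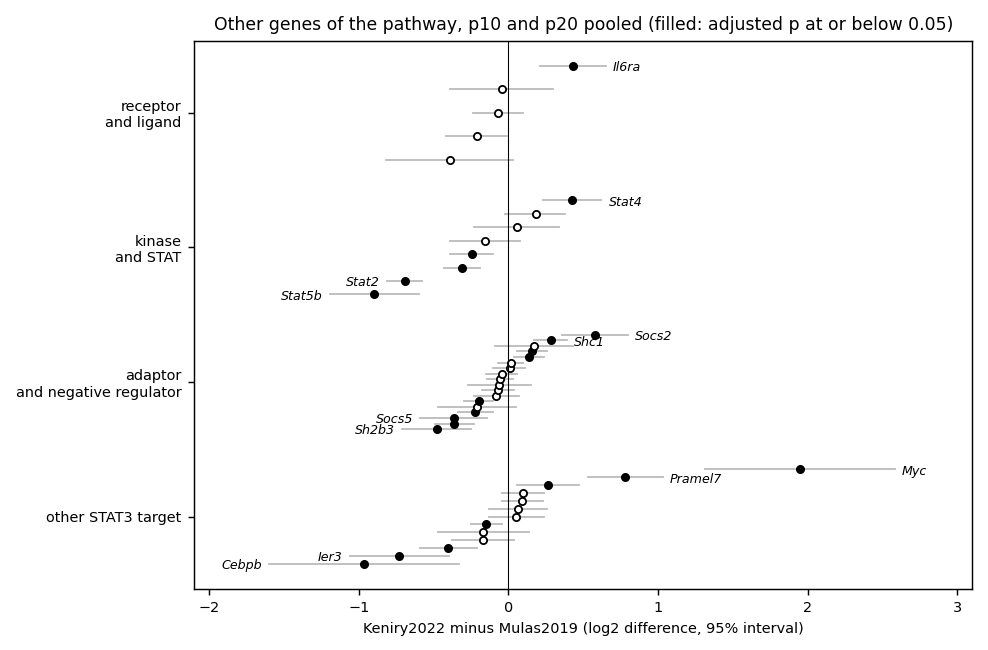
Difference between methods (Keniry2022 minus Mulas2019, log2, 95% interval) for the tested genes of the 4 lists, p10 and p20 pooled, filled where the adjusted p was at or below 0.05. Cebpb at −0.97 and Stat5b at −0.89 lie farthest to the left. Myc, drawn at 1.95, passed the filter only through the Keniry2022 libraries, so its fill is not read as a result.

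The features whose patterns over the 10 libraries were most like those of Lifr, Stat3 and Socs3, among features averaging 3 or more in log2 RPKM, are given as a description. Pearson's r with Lifr was 0.968 for Lrrc47, 0.962 for Gm5422 and 0.953 for Akap8. It was 0.982 for Nup133, 0.98 for Rsc1a1 and 0.976 for Akap1 with Stat3. It was 0.911 for Sfrp1, 0.909 for 2510039O18Rik and 0.877 for S100a13 with Socs3. Without p0 replicate 1, which lay at an end of the range of Lifr and Stat3, r was 0.89 to 0.95 for these 9 features. The points share their libraries and their library totals.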

How the data were processed

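The deposited table held 1 log2 value per feature and library, which the authors made with the RNA-seq pipeline of SeqMonk from single-end reads aligned to mm10. The study's methods give HISAT2 as the aligner, whereas TopHat2 2.0.12 (with bcl2fastq) stands in the submitters' processing notes. The annotation release and the strand setting were not given in the sources used here. As deposited, the log2 values behaved as log2 RPKM with 0 reads entered as 0.9 reads, which gave library totals, exon lengths and whole reads (100% of values within 0.1 reads). Lengths of 15661 features came from a search for whole reads, so these are no check of it.

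Tests were run in R 4.3.3 with limma 3.58.1 (intensity trend, two-sided, Benjamini-Hochberg over all features tested, threshold 0.05). Pooled methods were compared over 8 libraries without a block, as in the study, and the rest in 1 model of 5 groups. The limma trend fit took the place of the study's voom fit because values were deposited as log2. The alternatives tried were other filters, scalings and models, and each library left out in turn. With replicates from 2 lines, p-values measure only the spread between these libraries. The members, gene lists and tests were chosen with earlier results of these data known. Named pathway genes were the 2 largest called differences per list and direction in the pooled comparison. Reads are not independent molecules.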

Additional observations from a re-analysis of the deposited data

Results flagged for a closer look

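In 2 of 20 sets of 4 libraries tested (each gene under each method), 1 library stood apart from the other 3 by Dixon's ratio (the gap to the nearest library over the whole range), above its 95% critical value for 4 values. Chance flags about 1 in 20 such sets. For Stat3 under Mulas2019 the ratio was 0.928, with 3.33 in p20 replicate 2 and 3.45 to 3.46 in the other 3 libraries. For Pim1 under Mulas2019 it was 0.832, with 5.88 in p20 replicate 2 and 6.01 to 6.04 in the others. The same library was the low one in both. Without it the pooled difference of Stat3 was −0.01 (limma adjusted p = 0.877), and the call of Pim1 was kept.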

How the results depend on the processing

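Of the 10 genes, 3 were called between the pooled methods. This count was 5 with passage as a term (54.9% of features called) and 5 with the correction for exon length (46.8%, chosen after seeing the data). It was 1 in the model of 10 libraries and 5 groups, where all features called fell from 6000 to 2225 (19.2%). With 1 library left out it was 2 to 4 (43.6% to 49.3% of features). The share of called features that were higher under Keniry2022 was 59.3% under the stricter filter and 41.4% under voom. Without a test passed, 2 differences between the pooled methods turned in sign: Stat3 was −0.01 under voom and between −0.02 and 0.07 with 1 library left out, the negative values being those without p10_Keniry2022 replicate 2 (−0.02) and p20_Mulas2019 replicate 2 (−0.01), and Socs3 was −0.05 after quantile normalisation. At p10, where 0 were called (8.53% of features), 1 was called after quantile normalisation (9.85%) and 4 with library quality weights (50.9%). In the model of 4 groups 4 were called (48.3%), and without either p0 library the count rose with the share of features. At p20, where 0 were called (2.15%), the counts were 1 with weights (35.3%) and 3 in the model of 4 groups (36.7%). The count again rose with the share of features without either p0 library. For p20 Keniry2022 against p10 Mulas2019, 1 was called (6.43% of features). The counts were 0 with the stricter filter (4.17%), 0 with no filter (3.02%), 0 with the replicate block (4.42%) and 0 with that block crossed (4.84%). They were 2 with the correction for exon length (13.3%), 5 with weights (40%) and 5 in the model of 4 groups (43.4%). Without either p0 library the count rose with the share of features, and both fell without any 1 cultured library.

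Against p0, p10 Keniry2022 had 0 calls (0.199% of features), a count that rose only without a p0 library. p20 Keniry2022 had 0 calls, and 0 to 8 in the same way (3 and 8). p10 Mulas2019 had 3 calls (33% of features), 5 after quantile normalisation (32.7%) and 0 with weights (0%). The count rose without either p0 library and fell without either p10 Mulas2019 library. p20 Mulas2019 had 2 calls, 4 under voom, 0 with weights, and 0 to 7 with 1 library left out (4 without p0 replicate 1, 7 without p0 replicate 2, 0 without either of its own). From p10 to p20 within Mulas2019, where 0 were called (0% of features), 1 (Gbx2) was called with weights (4.43%) and 1 in the model of 4 groups (2.47%). Without either p0 library the Gbx2 difference was 0.73. No alternative run changed the count of 0 from p10 to p20 within Keniry2022 or for the interaction. The cause was not tested. Where a pair was cut to 1 library, that library was assumed to vary like the other groups.

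The replicate numbers were checked by the correlation, over 11561 features, of the replicate 1 minus replicate 2 differences of each pair of groups. It was 0.171 to 0.63 among p0, p10 Keniry2022 and the Mulas2019 groups, and −0.698 to −0.118 with p20 Keniry2022, so the numbers as labelled do not pair the samples. With the replicate block the pooled methods gave 3 calls among the 10 genes (49.3% of features). With the numbers of p20 Keniry2022 crossed, a pairing chosen after seeing the data, there were 2 (49.6% of features). Among members not called between the pooled methods, Lifr (0.18) was called in 4 and Bcl3 (−0.25) in 6 of 21 alternatives.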
